A study of Mus musculus with 8 samples.

Results

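The genes described here are fatty acid oxidation genes and targets of the nuclear receptor PPARA in mouse liver, 42 symbols in all. Members were the probes that are not controls in the authors' processed table and whose symbol, or older synonym, was on that list. This took 51 probes of 37 genes, among 40646 probes and 21195 named genes of the table, and 5 symbols (Acaa1b, Acadvl, Decr2, Hsd17b4 and Slc25a20) had no probe there. None of the members differed between miR-223 knockout (miR-223KO) and wild-type (WT) liver past the adjusted threshold. Most fold changes were small and above 0, with a median log2 fold change of 0.096 over 25 members with outlier-flagged spots left out and 0.14 over 36 members with those spots kept. All features had medians of -0.0096 and -0.0083. With flagged spots left out, 16 of 25 members lay above 0, against 48.2% of all features. Without miR-223KO replicate 4 the count was 13 of 25.

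The samples were 4 miR-223KO and 4 WT livers of male mice on the C57BL/6J background, and both genotypes had eaten a high-fat diet for 3 months. Each liver RNA was labelled with Cy5 and put on its own Agilent array beside an assorted mouse RNA in Cy3, which served as the common reference. Each of the 2 slides held 2 arrays of either genotype. Values are log2 ratios of liver over reference, and a log2 fold change is the miR-223KO mean less that of WT, so that 1 is a doubling. A ratio depends on the reference RNA as well as on liver, and the normalisation sets it against spots of like brightness, so it is no measure of abundance. No probe was named for the deleted microRNA, so the genotype labels could not be checked by its level, and the labels give neither the cells in which it is missing nor the number of mice behind a sample. The p-values therefore measure the spread between these samples. In whole liver, fewer cells of a type and less RNA per cell cannot be told apart.

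Fatty acids are activated to acyl-CoA, carried into mitochondria through the carnitine shuttle and shortened by the dehydrogenases, hydratases and thiolases of beta-oxidation, whose electrons pass to the respiratory chain through electron transfer flavoprotein. Peroxisomes shorten very long and branched chains with enzymes of their own. In hepatocytes PPARA, bound to DNA with its RXR partner, is activated by fatty acids and switches on many of these genes in fasting.

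The mature strands of the microRNA that the knockout lacks are shown because its loss is what sets the groups apart by design; capitals mark the seed (bases 2 to 8), and the sequences are RefSeq's, on chromosome X of build GRCm38.p6.
miR-223-3p: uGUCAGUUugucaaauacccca
miR-223-5p: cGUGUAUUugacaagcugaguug

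The results on single genes turn on a few 60-base array probes, of which the first 30 bases are shown as the authors' table gives them. They tell apart the probes that read the same gene differently. The genes of Ehhadh, Vnn1 and Ppara lie on chromosomes 16, 10 and 15, and Pex19 lies on chromosome 1.
Ehhadh: atggccagatttcaggaatgtgttttctat
Pex19, brighter probe: ccctgactgtccttacgtcctctctgttta
Pex19, dimmer probe: ctatgagtcctactccatcagggtttctgc
Vnn1: ctgtttgtcaacagtggactcgggtgtaag
Ppara: caatgttaatcaatgcacagcactctacgt
The RefSeq promoter windows, from 250 bases before to 50 bases after the start, were available for 36 of the 42 listed genes. None of the 36 held a direct repeat 1 spelled as AGGNCA followed, after 1 base, by AGGNCA on either strand, against 122 of 27025 genes with a window (0.451%). The search shows only that these letters are absent from the windows.

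Outlier flags decided which members could be tested. The scanner software flags spots that are uneven or stand out among copies of a probe, and every spot of the probe was flagged in 58 of 408 member probe and array pairs (14.2%), with 1.96% to 21.6% on single arrays. Over all spots the flagged share was between 2% and 5.67% per array. Flags for unevenness in Cy5 lay on 36 of these pairs and in Cy3 on 26. With flagged spots left out, 25 members kept at least 3 values in each group and a Cy5 signal well above background on at least 4 arrays. Keeping flagged spots let 36 members be tested, and only the dim thioesterase probe of Acot2 was not. The members lost were largely bright ones: 4 remained of those with a mean log2 signal of 12 or above, where 10 were tested with flagged spots kept. Both fits are therefore given. The 4 probes that stand 10 times on an array (of Ppara, Cpt1a, Acaa2 and Pex11a) kept at least 1 unflagged copy on every array, with 67 of 80 spots of Acaa2 flagged and 27 of 80 spots of Ppara.

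With flagged spots left out, 0 of 25 members passed an adjusted p of 0.05 in limma, where 2 of 16771 features did (0.0119%), and the smallest adjusted p among members was 0.979. At an unadjusted p under 0.05 stood 1 member (4%), against 4.66% of all features. A log2 fold change above 0 was found for 16 of 25 members (64%), against 48.2% of all features, whose median was -0.0096. That split depended on the setting. It was 22 of 25 with median centring in place of loess, which also put 63.8% of all features above 0, and 23 of 25 with the Cy5 channel alone (51.7% of features). It was 13 of 25 without miR-223KO replicate 4 (48.9% of features) and 13 to 18 of 25 over all 8 fits that leave out 1 array. The members' fold changes ran from -0.34 for Acaa2 to 0.53 for Ehhadh. The groups did not overlap for 1 member (4%), against 3.08% of features. The 95% interval lay within -1 to 1 for 23 of 25 members (92%), against 95.6% of features, so for most members a doubling or halving lay outside it.

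When flagged spots were kept, 0 of 36 members passed, where 1 of 17801 features did (0.00562%), and the smallest adjusted p among members was 0.978. An unadjusted p under 0.05 was found for 1 member (2.78%), against 4.73% of features. The fold change was above 0 for 29 of 36 members (80.6%), against 48.5% of features, whose median was -0.0083. Groups without overlap were found for 1 member (2.78%), against 2.7% of features. The 95% interval lay within -1 to 1 for 34 members (94.4%), against 95.2% of features. The counts of members with a low p or separate groups were thus near the background in both fits, while the share above 0 was higher than the background. Members share samples, are not replicates and were chosen with earlier results of these data known, and no test was made of that share.

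**Figure D1:**
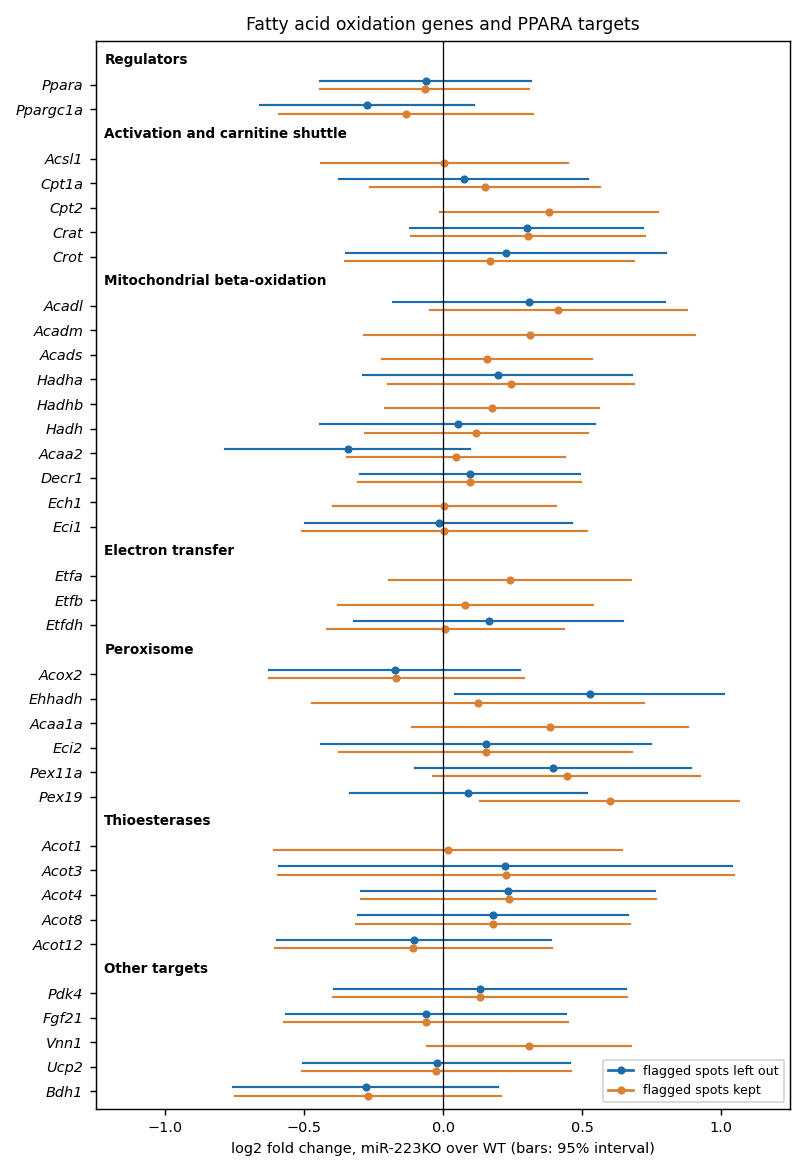
Log2 fold change of each listed gene (rows, by role), miR-223KO over WT, with its 95% interval, for flagged spots left out (blue, 25 genes) and kept (orange, 36 genes). Intervals exclude 0 only for Ehhadh with flagged spots left out and for Pex19 with flagged spots kept. For both genes the interval in the other setting holds 0, and for Pex19 it is that of another probe.

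The share above 0 was counted by brightness. Among members in the fit that keeps flagged spots, 3 of 7 with a mean log2 signal of 8 to 10 had a fold change above 0, 16 of 19 members at 10 to 12, and 10 of 10 members at 12 and above. All features at these levels gave 48.9%, 51.7% and 49%. The brightest members nonetheless had a median log2 fold change of only 0.099, against 0.18 at 10 to 12. With flagged spots left out the counts were 3 of 7, 11 of 14 and 2 of 4, against 49.1%, 49.7% and 41.3% of features.

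**Figure D2:**
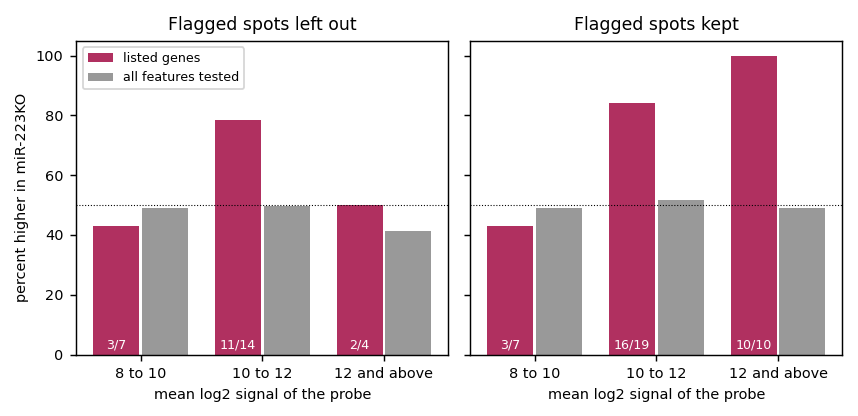
Percent of features with a higher value in miR-223KO than in WT liver, by mean log2 signal of the probe, for the listed genes (red, with their counts) and all features tested (grey); the dotted line is 50%. Listed genes stand above all features at 10 to 12 in both settings, and at 12 and above their count is 10 of 10 with flagged spots kept and 2 of 4 without.

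Array by array, each gene's deviation from its own mean over the 8 arrays was taken, and the median over members read. In the setting that keeps flagged spots it was 0.100, 0.062, -0.035 and 0.19 on the miR-223KO arrays, against -0.11, -0.084, -0.074 and -0.067 on the WT arrays. All miR-223KO arrays lay above all WT arrays, with replicate 4 the highest and replicate 3 the nearest to WT. With flagged spots left out it was -0.030, 0.056, -0.019 and 0.22 on the miR-223KO arrays, against -0.091, -0.022, -0.041 and 0.14 on the WT arrays. The groups then overlapped, since WT replicate 4 was the second highest of all. The members' median log2 fold change in that setting was 0.032 without miR-223KO replicate 4, 0.046 without WT replicate 1 and 0.17 without miR-223KO replicate 1. Over all features the medians lay between -0.016 and 0.0069 on every array in both settings. Within slide 1 the median difference of the members was 0.10 with flagged spots left out and 0.15 with them kept, and within slide 2 it was 0.071 and 0.13.

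**Figure D3:**
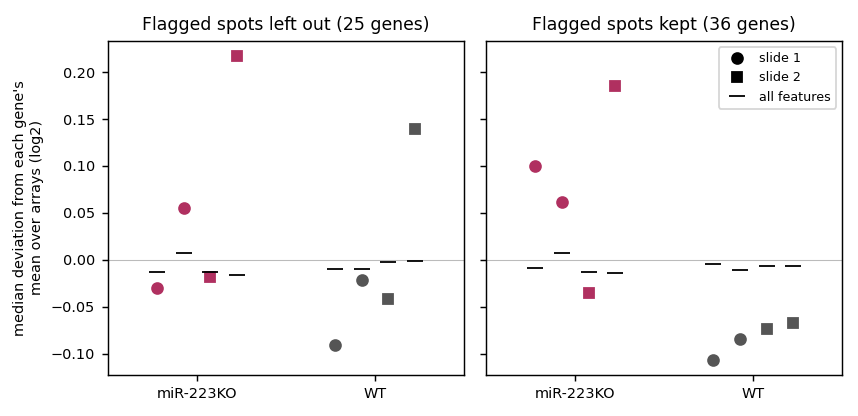
Median deviation of the listed genes from each gene's own mean over 8 arrays (log2 scale), per array, with circles for slide 1 and squares for slide 2; black dashes are all features tested. With flagged spots kept (right) every miR-223KO array lies above every WT array, and with them left out (left) the groups overlap.

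Markers of hepatocytes, the main cells of this pathway, mostly had fold changes below 0. Of 10 such markers, 5 were tested with flagged spots left out and 0 had a fold change above 0 (median -0.22). With flagged spots kept the count was 2 of 9 (median -0.14). The shares above 0 over all features were 48.2% and 48.5% (medians -0.0096 and -0.0083). The mean log2 ratio of the 5 markers, over those measured on an array, was 0.37 to 0.83 on miR-223KO arrays and 0.75 to 1.89 on WT arrays, above 0 on all 8. With flagged spots left out, Apob, Ttr and Hnf4a had 3 WT values each, so the WT means and medians did not all cover the same markers. In that setting WT replicate 4 stood apart, with the markers' median deviation at 1.05, against -0.051 to 0.12 on the other WT arrays. With flagged spots kept the mean of 9 markers was 0.15 to 0.55 on miR-223KO arrays and 0.23 to 0.69 on WT arrays, and the deviation was 0.060 on WT replicate 4 and 0.32 on WT replicate 1, the highest WT array there. Their part in the members' values was not tested.

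Of the regulators, Ppara, the receptor itself, had log2 ratios of 0.017, 0.037, -0.44 and 0.035 on the miR-223KO arrays, against 0.017, -0.078, 0.054 and -0.090 on the WT arrays. The groups overlapped, and miR-223KO replicate 3 was far below the other 7 arrays. Ppara averaged -0.088 ± 0.24 in miR-223KO liver and -0.024 ± 0.071 in WT liver (SD, n = 4 and 4), a log2 fold change of -0.064 (SE 0.18, 95% interval -0.44 to 0.32, adjusted p = 0.996) in limma. Each of these values is a mean of 5 to 8 unflagged copies of the probe, whose SD within an array was 0.199 to 0.425 before loess. Ppargc1a, which encodes a coactivator of PPARA and of mitochondrial genes, read -0.049, 0.11, 0.11 and -0.16 in miR-223KO liver, against 0.56, 0.35, -0.0012 and 0.20 in WT liver. The highest 3 values were WT, but the fourth WT value lay among those of miR-223KO. Its log2 fold change was -0.27 (SE 0.18, 95% interval -0.66 to 0.11, adjusted p = 0.979) in limma, and a second probe gave -0.13 with flagged spots kept. With the Cy5 channel alone the sign turned for both genes, to 0.24 for Ppara and 0.155 for Ppargc1a.

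Activation and carnitine transport come next. Acsl1, which encodes the main long-chain acyl-CoA synthetase of liver, lost too many spots to flags and with them kept read 0.13, 0.26, -0.26 and -0.065 in miR-223KO liver, against 0.44, 0.15, -0.37 and -0.16 in WT liver. The groups overlapped fully, with a log2 fold change of 0.0038 (SE 0.21, 95% interval -0.44 to 0.45, adjusted p = 0.999) in limma. Cpt1a, which encodes the rate-setting acyltransferase of the outer mitochondrial membrane, read 0.17, -0.048, -0.46 and 0.45 in miR-223KO liver, against -0.14, -0.13, -0.18 and 0.27 in WT liver. In both groups replicate 4 was the highest, and the log2 fold change was 0.073 (SE 0.21, 95% interval -0.37 to 0.52, adjusted p = 0.996) in limma. Cpt2, its partner on the inner membrane, had 4 flagged values of 8, and with them kept read -0.36, -0.82, -0.38 and -0.43 in miR-223KO liver, against -0.86, -1.12, -0.71 and -0.82 in WT liver. Of the miR-223KO arrays, 3 lay above all WT arrays and replicate 2 lay among them, and those 3 were the flagged ones. Its log2 fold change was 0.38 (SE 0.18, 95% interval -0.011 to 0.77, adjusted p = 0.978) in limma, with within-slide differences of 0.40 and 0.36, and with flagged spots left out 1 miR-223KO value remained. The carnitine acetyl- and octanoyltransferase genes Crat and Crot had log2 fold changes of 0.30 and 0.23 with flagged spots left out, and neither passed.

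**Figure D4:**
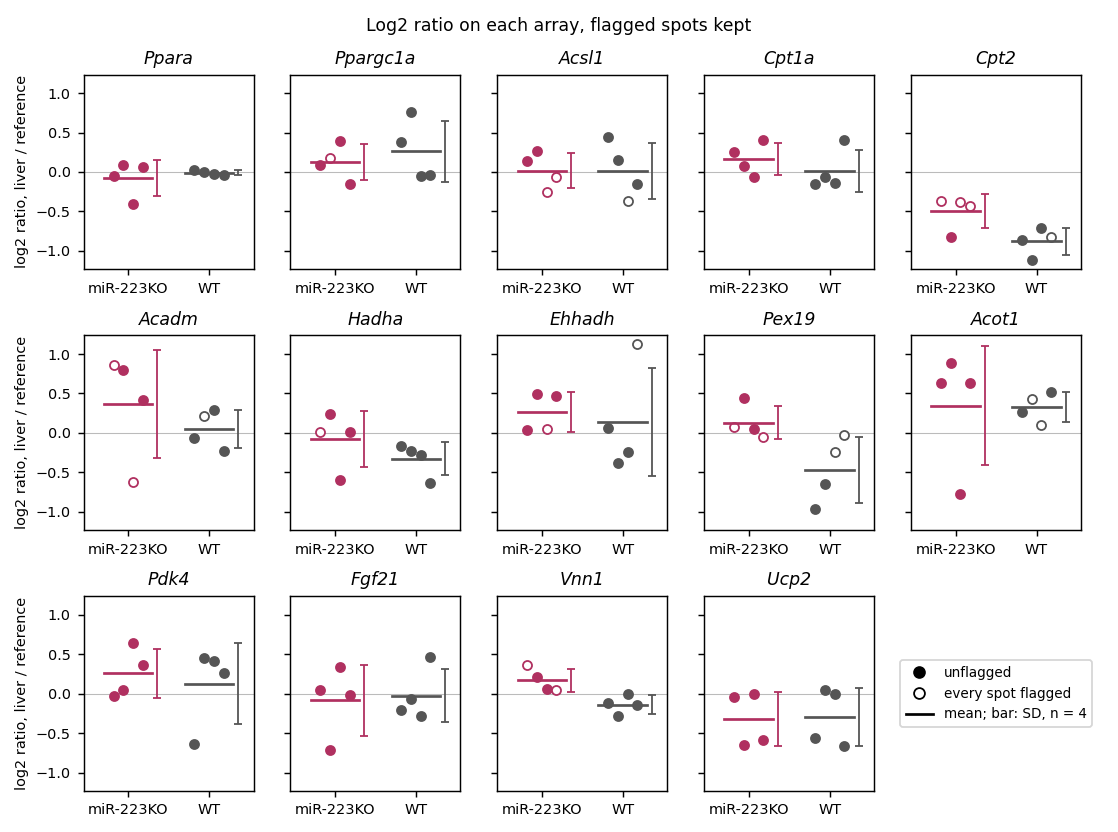
Log2 ratio of liver over reference on each of 4 miR-223KO (red) and 4 WT (grey) arrays for 14 listed genes, flagged spots kept; open circles are arrays where every spot of the probe was flagged, lines are means and bars SD (n = 4). The groups do not overlap only for Vnn1, and in Ehhadh the flagged WT replicate 4 at 1.12 stands above all other arrays.

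For mitochondrial beta-oxidation, Acadm, the medium-chain acyl-CoA dehydrogenase, read 0.86, 0.79, -0.62 and 0.42 in miR-223KO liver with flagged spots kept, against -0.066, 0.21, 0.29 and -0.23 in WT liver. Among miR-223KO arrays, 3 lay above all WT arrays while replicate 3 lay below them all. The spots of miR-223KO replicates 1 and 3 and of WT replicate 2 were flagged, as uneven in Cy3. The log2 fold change was 0.31 (SE 0.28, 95% interval -0.28 to 0.91, adjusted p = 0.978) in limma. Taken alone, the Cy5 liver signal of Acadm differed by -0.052 between the group means, and the Cy3 reference signal by -0.36. Hadha, the alpha subunit of the trifunctional protein that carries out the later steps for long chains, read 0.25, -0.59 and -0.0042 in 3 miR-223KO livers, against -0.19, -0.21, -0.25 and -0.59 in WT liver. Both groups had 1 array at about the same low value, and the log2 fold change was 0.20 (SE 0.23, 95% interval -0.29 to 0.68, adjusted p = 0.979) in limma. Its beta subunit gene Hadhb had 0.18 with flagged spots kept. Among the other dehydrogenases, Acadl (long chains) had a log2 fold change of 0.31 with flagged spots left out and 0.41 with them kept, and Acads (short chains) had 0.16 with them kept. Hadh, which oxidises hydroxyacyl-CoA, had 0.053, and Decr1, needed for unsaturated chains, had 0.096, both with flagged spots left out. The isomerase genes Eci1 and Ech1 had log2 fold changes of 0.0047 and 0.0039 with flagged spots kept. Acaa2, the mitochondrial thiolase, turned with the treatment of flags, at -0.34 with flagged copies left out and 0.046 with all 10 copies kept. None of these passed in limma, with adjusted p from 0.978 to 0.999 over all members and both settings.

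The electron transfer genes, through which the dehydrogenases pass on their electrons, had log2 fold changes of 0.24 for Etfa, 0.080 for Etfb and 0.0075 for Etfdh with flagged spots kept. Etfdh had a second probe at -0.26, so its probes pointed in different directions in this fit. The authors' deposited table gives -0.38 for either Etfdh probe. None of the 3 passed.

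Among the peroxisomal genes were both low p-values. Ehhadh, the bifunctional enzyme of peroxisomal beta-oxidation and a classical PPARA target, read 0.045, 0.53 and 0.45 in 3 miR-223KO livers, against 0.033, -0.37 and -0.22 in 3 WT livers. These groups just parted, since the lowest miR-223KO and the highest WT value were nearly equal. Ehhadh averaged 0.34 ± 0.26 in miR-223KO liver and -0.18 ± 0.20 in WT liver (SD, n = 3 and 3), a log2 fold change of 0.53 (SE 0.22, 95% interval 0.044 to 1.01, adjusted p = 0.979) in limma, or 1.44-fold, with an unadjusted p of 0.0348. The flagged spots that were left out read 0.055 in miR-223KO replicate 3, uneven in Cy3, and 1.12 in WT replicate 4, uneven in Cy5. With them kept, WT replicate 4 was the highest of all 8 arrays and the log2 fold change was 0.13 (SE 0.28, 95% interval -0.47 to 0.72, adjusted p = 0.992) in limma.

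Pex19, which encodes the chaperone that brings membrane proteins to the peroxisome, had its low p-value with flagged spots kept, and was read by different probes in the 2 fits. Its brighter probe read 0.073, 0.44, 0.055 and -0.049 in miR-223KO liver with flagged spots kept, against -0.96, -0.65, -0.24 and -0.021 in WT liver. The WT arrays of slide 1 were low and WT replicate 4 lay among the miR-223KO arrays. The log2 fold change was 0.60 (SE 0.22, 95% interval 0.13 to 1.07, adjusted p = 0.978) in limma, with an unadjusted p of 0.0155, and it was 1.06 within slide 1 and 0.13 within slide 2. Flags lay on 2 arrays of each group, so without flagged spots this probe was not tested, and the dimmer probe represented the gene. The 2 unflagged values per group of the brighter probe gave a mean difference of 1.07, with both WT values from slide 1. The dimmer probe had no flag and read 0.33, -0.30, 0.34 and 0.55 in miR-223KO liver, against 0.16, 0.22, 0.19 and -0.022 in WT liver, with overlap and a log2 fold change of 0.091 (SE 0.20, 95% interval -0.34 to 0.52, adjusted p = 0.992) in limma. The authors' deposited table gives log2 fold changes of 0.49 and -0.028 for the brighter and the dimmer probe.

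Pex11a, which takes part in peroxisome division, had the next highest peroxisomal log2 fold change, 0.40 (SE 0.23, 95% interval -0.100 to 0.89, adjusted p = 0.979) in limma with flagged copies left out and 0.44 with them kept. Its within-slide differences with flagged copies left out were 0.76 and 0.027, so the difference lay on slide 1. The thiolase gene Acaa1a had 0.38 with flagged spots kept, and the enoyl-CoA isomerase gene Eci2 had 0.15 with them left out. Acox2, the oxidase of branched chains and bile acid precursors, was among the 9 members below 0, at -0.18.

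The thioesterases split acyl-CoA back to free fatty acid and CoA. Acot1, the cytosolic form that PPARA induces strongly, read 0.64, 0.89, -0.78 and 0.63 in miR-223KO liver with flagged spots kept, against 0.26, 0.43, 0.10 and 0.52 in WT liver. Of the miR-223KO arrays, 3 lay above every WT array and replicate 3 far below, so that the log2 fold change was 0.017 (SE 0.29, 95% interval -0.61 to 0.64, adjusted p = 0.999) in limma. Acot2, the mitochondrial form, was too dim to test and its group means differed by 0.15. The peroxisomal forms Acot3, Acot4 and Acot8 had log2 fold changes of 0.22, 0.23 and 0.18, and the acetyl-CoA hydrolase gene Acot12 had -0.11, all with flagged spots left out. Acot1 and Acot2, and likewise Acaa1a and Acaa1b, are close copies of each other, and how far a probe also reads the copy was not tested. Acot3 had the widest interval of any member, -0.60 to 1.05 with flagged spots kept, with WT arrays from -1.50 to 1.11.

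The other targets of PPARA lie outside the oxidation steps. Vnn1, a pantetheinase on the hepatocyte surface, read 0.36, 0.22, 0.062 and 0.042 in miR-223KO liver with flagged spots kept, against -0.12, -0.29, -0.00077 and -0.14 in WT liver. It was the only member of 36 whose groups did not overlap in that setting, and the gap between the nearest arrays was narrow. Its log2 fold change was 0.31 (SE 0.17, 95% interval -0.060 to 0.68, adjusted p = 0.978) in limma, and flags on 2 miR-223KO arrays kept it from being tested without flagged spots. Pdk4, the kinase that shuts pyruvate dehydrogenase in fasting, read -0.032, 0.055, 0.65 and 0.36 in miR-223KO liver, against -0.64, 0.46, 0.42 and 0.27 in WT liver. The groups overlapped, with 1 low WT array, and the log2 fold change was 0.13 (SE 0.25, 95% interval -0.39 to 0.66, adjusted p = 0.991) in limma. Fgf21, the hormone that liver releases in fasting, read 0.051, -0.71, 0.34 and -0.015 in miR-223KO liver, against -0.21, -0.067, -0.28 and 0.47 in WT liver. High and low arrays stood in both groups, with a log2 fold change of -0.062 (SE 0.24, 95% interval -0.57 to 0.44, adjusted p = 0.996) in limma, and a dimmer probe gave a mean difference of 0.29. Ucp2, a carrier of the inner mitochondrial membrane, read -0.038, -0.65, -0.010 and -0.58 in miR-223KO liver, against -0.57, 0.049, 0.0020 and -0.67 in WT liver. Each group held 2 arrays near 0 and 2 near the low end, and the log2 fold change was -0.024 (SE 0.23, 95% interval -0.50 to 0.46, adjusted p = 0.998) in limma. Bdh1, which interconverts the ketone bodies, had -0.28 with flagged spots left out and -0.27 with them kept.

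Of the 37 members, 12 had more than 1 probe in the table. The probes pointed the same way for 8 of them and in different directions for 4 (Acsl1, Etfdh, Fgf21 and Ucp2), in either setting. The count takes in weakly measured probes. In Cy5 the dimmest Ucp2 probe was above background on 0 arrays, and the dimmest Hadha probe on 0 miR-223KO arrays and 1 WT array. With flagged spots left out, the second Etfdh probe had 1 WT value and the brighter Pex19 probe 2 values per group. With them kept, the Acsl1 probes parted at 0.0038 against -0.045. Over all 51 member probes, the authors' deposited table gives a log2 fold change above 0 for 34 (66.7%), against 48% of 40646 probes, with a median of 0.11 against -0.018 over all probes.

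Each of the 5 symbols without a probe in the table had 1 probe in the scanner files, matched by RefSeq accession, and it was flagged on 5 to 8 of the 8 arrays. Slc25a20, the carnitine-acylcarnitine carrier, read, with flagged spots kept, 0.33, -0.057, 0.31 and 0.78 in miR-223KO liver, against -0.36, -0.18, 0.29 and -0.10 in WT liver. Its highest values were miR-223KO, but replicate 2 lay among WT, and the log2 fold change was 0.43 (SE 0.21, 95% interval -0.026 to 0.88, adjusted p = 0.978) in limma. The thiolase gene Acaa1b read 0.67, 0.44, 0.98 and 0.14 in miR-223KO liver, against -0.65, -0.053, -0.17 and 1.30 in WT liver. WT replicate 4 was its highest array, as it was for Ehhadh. The log2 fold change was 0.45 for Acaa1b, -0.060 for Acadvl (very long chains), 0.12 for the peroxisomal reductase gene Decr2 and -0.28 for Hsd17b4, the second bifunctional enzyme, and none passed. All 620 probes left out of the table had every spot flagged on at least 4 arrays, against 0.757% of those in it.

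Genes of the same pathways outside the list were counted in the fit without flagged spots, and none passed. Of 18 further genes of mitochondrial oxidation and ketone bodies, 9 had a log2 fold change above 0 (median 0.018), and of 27 peroxisomal genes 15 (median 0.043). Of 19 other PPARA targets 9 lay above 0 (median -0.014), and of 23 regulators 17 (median 0.052). In the fit that keeps flagged spots the mitochondrial list had 8 of 22 above 0 (median -0.078), the peroxisomal list 19 of 35 (median 0.028), the other targets 16 of 26 (median 0.13) and the regulators 17 of 24 (median 0.062). The medians of the mitochondrial list and of the other targets thus differed in sign between the fits. The fits did not cover the same genes, and some genes were read by other probes.

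The smallest unadjusted p-values among these genes stood with the regulators Foxo1, a forkhead factor of fasting metabolism, and Lpin1, a coactivator of PPARA that also acts in lipid synthesis, at log2 fold changes of 0.62 (SE 0.18) and 0.84 (SE 0.24). Every measured miR-223KO array lay above every WT array for both genes, with 3 values per group for Lpin1, and limma gave an adjusted p of 0.979. The same order held for Pex3 and Slc22a5, and for Mlycd every measured miR-223KO array lay below WT. Over all features, groups did not overlap for 3.08%. With flagged spots kept, Foxo1 had 0.62 (SE 0.18) and Lpin1 0.51 (SE 0.30). The coactivator gene Ppargc1b had -0.47 (SE 0.22). Among the targets, Cidec, a lipid droplet protein, had 0.79 (SE 0.30) and the fatty acid carrier gene Cd36 0.54 (SE 0.25). The peroxisome import genes Pex5 and Pex3 had 0.62 (SE 0.25) and 0.42 (SE 0.18). The carnitine carrier gene Slc22a5 had 0.41 (SE 0.18) and Bdh2 had -0.56 (SE 0.22). All 9 had an unadjusted p under 0.05 and the same adjusted p of 0.979 in limma. They were 9 of 87 genes tested over the 4 lists (10.3%), 7 above and 2 below 0, against 4.66% of all features. The lists were chosen with earlier results of these data known, so this share cannot be read as a result about the pathways.

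In the fit that keeps flagged spots an unadjusted p under 0.05 was found for 14 of 107 genes of the 4 lists (13.1%), 10 above and 4 below 0, against 4.73% of all features. That share has the same limit, since the lists were chosen with earlier results known. The following 6 of these genes had no such p without flagged spots, where Hsd17b10 and Cat were not tested and Abcd3 and Apoa5 were read by other probes. They are named after their values were seen. Below 0 were Hsd17b10, a hydroxyacyl-CoA dehydrogenase of mitochondria, at -0.56 (SE 0.21) and Mlycd, which breaks down the Cpt1a inhibitor malonyl-CoA, at -0.56 (SE 0.22). Above 0 were the peroxisomal genes Abcd3, a fatty acid importer, at 0.53 (SE 0.19) and Cat, the catalase, at 0.56 (SE 0.22). The fatty aldehyde dehydrogenase gene Aldh3a2 had 0.59 (SE 0.27) and the apolipoprotein gene Apoa5 0.48 (SE 0.22). All 6 had an adjusted p of 0.978 in limma. With flagged spots left out, Apoa5 had the other sign, at -0.13 (SE 0.25). In that setting Aldh3a2 had 0.16 (SE 0.23), Abcd3 0.16 (SE 0.25) and Mlycd -0.40 (SE 0.21).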

How the data were processed

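Per the labels, RNA of 8 mouse livers was labelled with Cy5 and an assorted mouse RNA with Cy3 in the same orientation throughout. Per the file headers, the authors read the scans with Feature Extraction 12.0.3.1 of Agilent (protocol GE2_1200_Jun14). The deposited scanner files hold median signals, local backgrounds and processed signals as intensity, and a LogRatio that is log10 of processed Cy5 over Cy3. The authors' table holds log2 ratios of the processed signals (equal to the scanner files' to within 2.51e-06), and a log2 fold change. Its signed fold change, deposited as a score below 0 for lower genes, was not used.

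Here, median signals were background-corrected with normexp (offset 50) and normalised by loess within each array in limma 3.58.1 (R 4.3.3), and spots flagged as uneven or as population outliers were left out, or kept in a second fit. Copies of a probe were averaged, and an array counted as flagged when every copy was. A test needed a liver signal well above background on 4 or more of 8 arrays and 3 or more values per group. Of 41174 probes, 28687 were named through RefSeq accessions, 5011 by a current and 309 by an updated symbol, 1372 as given, and 5795 had no name. A gene was represented by its brightest probe. limma (lmFit and eBayes, two-sided) compared the groups, with Benjamini-Hochberg adjustment over all features and a threshold of 0.05. Spots well above background in Cy5 made up 49.5% to 69.8% of an array, and no spot was marked as saturated. The number of arrays limits the precision.

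The members, the gene lists and the rules were chosen with earlier results of these data known. Values on every array are given for members past the test, with an unadjusted p under 0.05 or with separate groups in either fit, and for a set list (Ppara, Ppargc1a, Cpt1a, Cpt2, Acadm, Hadha, Ehhadh, Pdk4, Fgf21, Ucp2, Vnn1, Acot1 and Acsl1). Slc25a20 and Acaa1b were added after their values were seen. Of each pathway list, at most 4 genes with an unadjusted p under 0.05 are named, and 6 more were added from the fit that keeps flagged spots after their values were seen. Alternatives covered background, normalisation, filters, probes, blocks and leaving out each array. The fitting code was tested on simulated data.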

Additional observations from a re-analysis of the deposited data

Results flagged for a closer look

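In 113 groups of 4 arrays (the tested members, in both settings), 9 had an array whose gap to its nearest neighbour exceeded Dixon's 95% limit for 4 values, where chance gives about 1 in 20 groups and the settings share arrays. With flagged spots left out these were Ppara in miR-223KO replicate 3 at a log2 ratio of -0.44 (the other 3 at 0.017 to 0.037), Cpt1a in WT replicate 4 at 0.27 (others -0.18 to -0.13) and Eci1 in WT replicate 4 at -0.93 (others -0.048 to 0.074). When flagged spots were kept, miR-223KO arrays stood apart for Hadhb (replicate 2 at 0.15), Cpt2 (replicate 2 at -0.82) and Acot1 (replicate 3 at -0.78). WT arrays stood apart for Hadh (replicate 1 at -0.40), Cpt1a (replicate 4 at 0.41) and Eci1 (replicate 4 at -1.04). The arrays involved were miR-223KO replicates 2 and 3 and WT replicates 1 and 4. No cause was tested.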

How the results depend on the processing

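Over 23 alternatives no member passed the test, with a lowest adjusted p of 0.868 (Ehhadh in limma). The members' median log2 fold change was 0.096, and it ran from 0.032 to 0.17 when 1 array was left out (0.032 without miR-223KO replicate 4, 0.046 without WT replicate 1, and 0.17 without miR-223KO replicate 1), with 13 to 18 of 25 members above 0. Median centring in place of loess moved it to 0.31 (22 of 25 above 0), while the median of all features was 0.081, and with Cy5 alone it was 0.15 (23 of 25 above 0, all features 0.011). The other alternatives gave 0.082 to 0.14. Of 575 pairs of member and alternative, 49 had a sign other than that without the change, in 18 of 25 members. The count of genes past the test was 2. It was 1 with flagged spots kept, with processed signals, with the deposited log2 ratios, with median centring, with Cy5 alone and with the mean of a gene's probes. It was 4 with an offset of 16 and with a trended robust eBayes. With the replicate block it was 2, and the members' median was 0.096 with 15 of 25 above 0. Deviations of same-numbered arrays had correlations of -0.00219, 0.0624, 0.00833 and -0.0228, and those of unlike-numbered arrays -0.0837 to 0.0621. Whether the numbers pair the samples cannot be told from these values. In both genotypes replicates 1 and 2 lay on slide 1 and replicates 3 and 4 on slide 2. Uneven bright spots limit the members more than dim signal does: 11 members were tested only with flagged spots kept. The cause of these differences was not tested.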

Other observations

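Markers of the other cells that whole liver holds were read in the same fit, with flagged spots left out, and none passed the test. Kupffer cell and macrophage markers had the highest median log2 fold change of the lists (8 of 9 above 0, median 0.49, range -0.037 to 0.76), and it was 0.50 with flagged spots kept. Their mean log2 ratio was -0.11 to 0.62 on miR-223KO arrays and -0.43 to 0.53 on WT arrays, so the groups overlapped. Endothelial markers came next (6 of 8 above 0, median 0.12). The other lists gave 2 of 5 above 0, median -0.041 for neutrophils, 2 of 4 above 0, median -0.037 for B cells, 3 of 6 above 0, median -0.019 for T and NK cells, 3 of 7 above 0, median -0.0023 for stellate cells and 1 of 5 above 0, median -0.20 for cholangiocytes. Adipocyte markers gave 0 of 3 above 0, median -0.22, erythroid markers 1 of 2 above 0, median -0.11 and muscle markers 1 of 2 above 0, median -0.012. The lists are short and were not tested as sets, and all features had a median of -0.0096.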
